A study of Mus musculus with 4 samples.

Results

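The Wnt pathway was followed through its ligands, receptors, secreted antagonists and intracellular signalling genes in mouse primary Leydig cells, the interstitial cells of the testis that make androgens. The gene set was chosen by name and held every protein-coding gene of the count table named as a Wnt, Fzd, Sfrp, Dkk or Rspo gene or as Lgr4, Lgr5 or Lgr6. To these were added Lrp5, Lrp6, Frzb, Wif1, Notum, Rnf43, Znrf3, Axin1, Axin2, Ctnnb1, Nkd1, Nkd2, Lef1, Tcf7, Tcf7l1 and Tcf7l2. That gave 60 genes of 55812 features in the table. RNA sequencing had been done on 2 samples treated with small interfering RNA (siRNA) against Trps1, a GATA-type zinc finger repressor of transcription, and on 2 samples treated with Negative siRNA. All 4 samples carried the label 6-month-old mouse and the cell type label Leydig cell, and neither strain nor genetic alteration was named. The siRNA sequence, its dose and the time between transfection and harvest were not given in the labels. It is not stated whether the replicates are independent cultures or animals. The p-values therefore measure only how these 4 samples spread, and that spread may be technical.

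Wnt proteins are secreted, lipid-modified signals that bind Frizzled receptors together with the coreceptors Lrp5 or Lrp6. In the canonical branch this stops the destruction complex, which holds Axin, from degrading beta-catenin, and beta-catenin then acts in the nucleus with Tcf and Lef proteins, raising feedback genes such as Axin2 and Nkd1. Other Wnt proteins, of which Wnt5a is the best-studied example, mostly act without beta-catenin, and in the developing gonad Wnt4 and Rspo1 are known for promoting the ovarian fate.

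The libraries held 17844125 and 21597187 counted reads with Trps1 siRNA and 20116799 and 25852898 with Negative siRNA. Levels are given as CPM when 1 gene is compared between samples, and as TPM when genes are compared with each other. CPM are reads scaled to library size adjusted by TMM normalization. TPM are reads per exon length, scaled to the same sum in every sample. Trps1 had 23.5 and 30.1 CPM with Trps1 siRNA, against 38.1 and 42.2 CPM with Negative siRNA. The libraries thus matched their labels, with 67.1% of the control level remaining. Sample 2 of Trps1 siRNA kept more Trps1 than sample 1. Leydig markers were abundant in every library. The 8 of them summed to 6035 and 6477 CPM with Trps1 siRNA, against 4054 and 4337 CPM with Negative siRNA. With Trps1 siRNA 6 of the 8 were called higher, and the 8 log2 fold changes ran from -0.09 to 2.70. The cultures also held macrophage transcripts, and 9 of 12 macrophage markers fell. These 12 summed to 2563 and 2045 CPM with Trps1 siRNA and 3015 and 2945 CPM with Negative siRNA. Of all tested genes 5.24% were called higher and 6% lower. In such bulk samples, a change in the number of cells of a type and a change in RNA per cell cannot be told apart.

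Of the 60 Wnt pathway genes, 35 had enough reads to be tested. With Trps1 siRNA, Wnt5a, Sfrp2, Fzd2 and Fzd1 rose and Wnt6, Wnt10a and Axin2 fell, while 28 genes did not pass the test (edgeR quasi-likelihood test, Benjamini-Hochberg adjusted p under 0.05 over all genes). The 7 changed genes made up 20% of the tested members, against 11.2% of all 14701 tested genes. Higher genes were 4 of 35, against 5.24% of all tested genes, and lower genes 3 of 35, against 6%. All 7 changes were below 2-fold. The median log2 fold change of the 35 genes was 0.09, against 0.00 over all tested genes, and 24 of the 35 values were positive. The 2 groups did not overlap for 19 of the 35 genes, or 54.3%, which was near the 52.2% of all tested genes. The members were chosen with earlier results in view, so these shares are descriptions. Without sample 2 of Trps1 siRNA the numbers fell to 2 higher and 1 lower, namely Wnt5a, Sfrp2 and Wnt6, with 5.74% of all tested genes called.

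**Figure D1:**
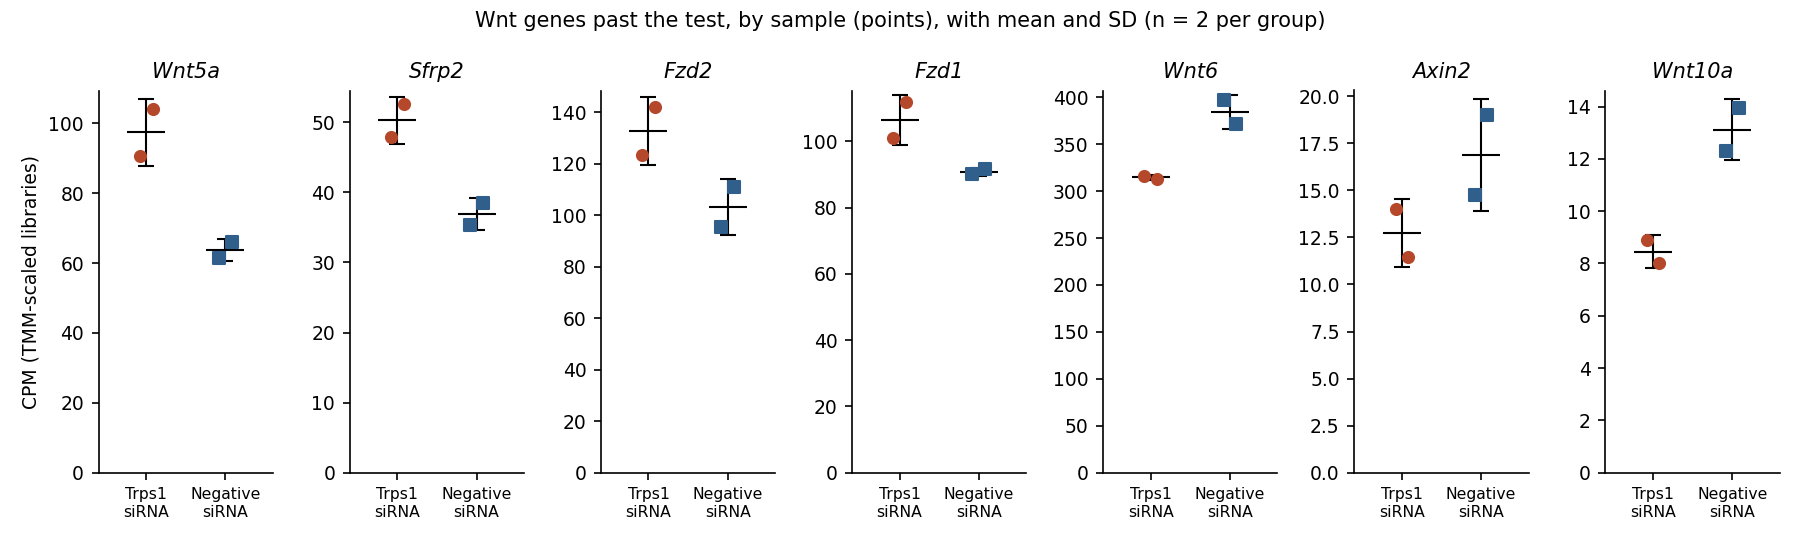
CPM of the 7 Wnt pathway genes past the test, with Trps1 siRNA (circles) left of Negative siRNA (squares) in each panel; points are samples, bars the mean and SD (n = 2 per group). In each panel the groups do not overlap, and the gap is narrowest for Axin2, between 14.0 and 14.8 CPM.

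Among the ligands, Wnt6 was by far the most abundant and Wnt5a showed the clearest rise. Of 19 ligand genes 8 were tested, of which Wnt5a rose and Wnt6 and Wnt10a fell, and the other 5 did not pass the test. The share called was 37.5% of these 8 genes, against 11.2% of all tested genes. Wnt5a (ENSMUSG00000021994, chromosome 14, 28504750 to 28527448, plus strand, GRCm38) had 90.6 and 104 CPM with Trps1 siRNA, against 61.4 and 65.9 CPM with Negative siRNA. Both Trps1 siRNA samples lay well above both controls, and the gap between the groups exceeded the distance between the samples of either group. The change was 1.53-fold, with a log2 fold change of 0.61 ± 0.07 (standard error; edgeR adjusted p = 1.51e-06). Wnt5a shares exon sequence with an antisense gene, Gm2670, to which at most 13 reads per sample were assigned. No source used here says if reads were counted by strand.

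Wnt6 (ENSMUSG00000033227, chromosome 1, 74771892 to 74785322, plus strand), a ligand of the canonical class, had 317 and 313 CPM with Trps1 siRNA, against 397 and 371 CPM with Negative siRNA. The treated samples agreed closely and both lay below the controls. The fall was to 0.819 of the control level, a log2 fold change of -0.29 ± 0.06 (edgeR adjusted p = 0.00177). Wnt10a (ENSMUSG00000026167, chromosome 1, 74791516 to 74804179, plus strand), another canonical ligand, had 8.91 and 8.01 CPM with Trps1 siRNA, against 12.3 and 13.9 CPM with Negative siRNA. It showed the larger relative fall, to 0.642 of the level in controls (-0.64 ± 0.14 on the log2 scale, edgeR adjusted p = 0.00286), from 159 and 174 reads with Trps1 siRNA against 247 and 357 with Negative siRNA. That call was lost without sample 2 of Trps1 siRNA (edgeR adjusted p = 0.0631).

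Wnt4 was at 58.1 and 58.8 CPM with Trps1 siRNA, against 63.6 and 57.9 CPM with Negative siRNA. Its groups overlapped, and its log2 fold change was -0.05 ± 0.07. Wnt5b, the near relative of Wnt5a, had 5.21 and 6.58 CPM with Trps1 siRNA, against 8.11 and 6.06 CPM with Negative siRNA. These samples overlapped too, and the log2 fold change was -0.25 ± 0.18. Wnt2, Wnt2b and Wnt9a were scarce, with at most 44 reads in any sample, and their standard errors of 0.34 to 0.46 on the log2 scale leave sizeable changes undetectable at this depth.

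Set against each other per exon length, the ligands formed a steep order. Wnt6 averaged 449 TPM with Trps1 siRNA and 544 TPM with Negative siRNA, which over all samples placed it at percentile 97.9 of all tested genes. Wnt4 averaged 43.6 and Wnt5a 38.9 TPM with Trps1 siRNA, against 45.0 TPM for Wnt4 and 25.3 TPM for Wnt5a with Negative siRNA. By this measure Wnt4 and Wnt5a lay far apart in the controls, whereas with Trps1 siRNA their ranges of 43.1 to 44.1 and 36.0 to 41.9 TPM nearly met. The exon lengths behind these values, 4194 bases for Wnt4 and 7823 bases for Wnt5a, join all annotated exons of each gene. The distance between these genes thus depends on which exons the cells use, which was not tested. Next came Wnt10a, with 10.7 TPM with Trps1 siRNA and 16.5 TPM with Negative siRNA, and Wnt5b, with 6.95 TPM with Trps1 siRNA and 8.30 TPM with Negative siRNA. The summed TPM of the 19 ligand genes was 550 and 557 with Trps1 siRNA, against 672 and 615 with Negative siRNA. Within that sum Wnt6 made up 81.5% and 80.7% with Trps1 siRNA, against 84.8% and 84.4% with Negative siRNA. The share of Wnt5a was 6.54% and 7.53% with Trps1 siRNA, against 3.68% and 4.20% with Negative siRNA.

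**Figure D2:**
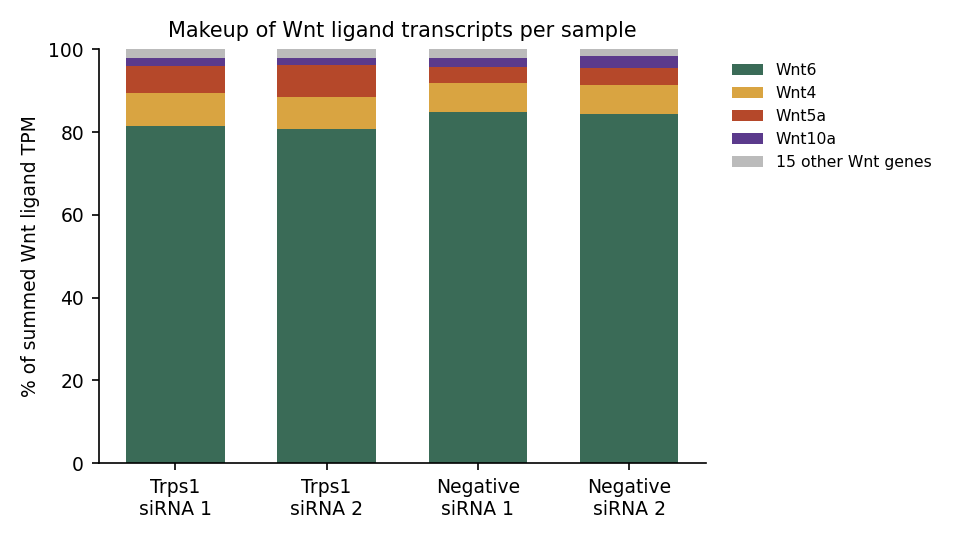
Share of each Wnt ligand in the summed ligand TPM (vertical axis, percent), 1 stacked bar per sample, Trps1 siRNA samples left of Negative siRNA samples. Wnt6 fills 80.7% to 84.8% of every bar, and the Wnt5a segment is 6.54% and 7.53% with Trps1 siRNA against 3.68% and 4.20% with Negative siRNA.

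Wnt6 and Wnt10a, the ligand genes that fell, are neighbours on chromosome 1. They lie on the same strand with 6.2 kb between them, and no annotated gene shares exon sequence with either. Other neighbouring members were Wnt3a and Wnt9a, 16.2 kb apart, Wnt9b and Wnt3, 24.3 kb apart, and Wnt10b and Wnt1, 11.7 kb apart, of which only Wnt9a had enough reads to be tested. Within 250 kb of the Wnt6 start site, 16 protein-coding genes start, and 11 of them were tested. Besides Wnt6 and Wnt10a, 1 of the other 9 tested genes was called, where 11.2% of all tested genes were called. This gene, Ttll4, rose 1.30-fold (log2 fold change 0.38 ± 0.09, edgeR adjusted p = 0.00327). The genes on the upstream side closest to Wnt6 were Prkag3, with a log2 fold change of -0.12 ± 0.14, and Cyp27a1, a sterol hydroxylase, with -0.17 ± 0.07, and neither passed the test. On the far side of Wnt10a the genes Cdk5r2, Fev, Cryba2, Cfap65 and Ihh did not pass the filter on low counts. This window was examined after the fall of both genes had been seen.

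**Figure D3:**
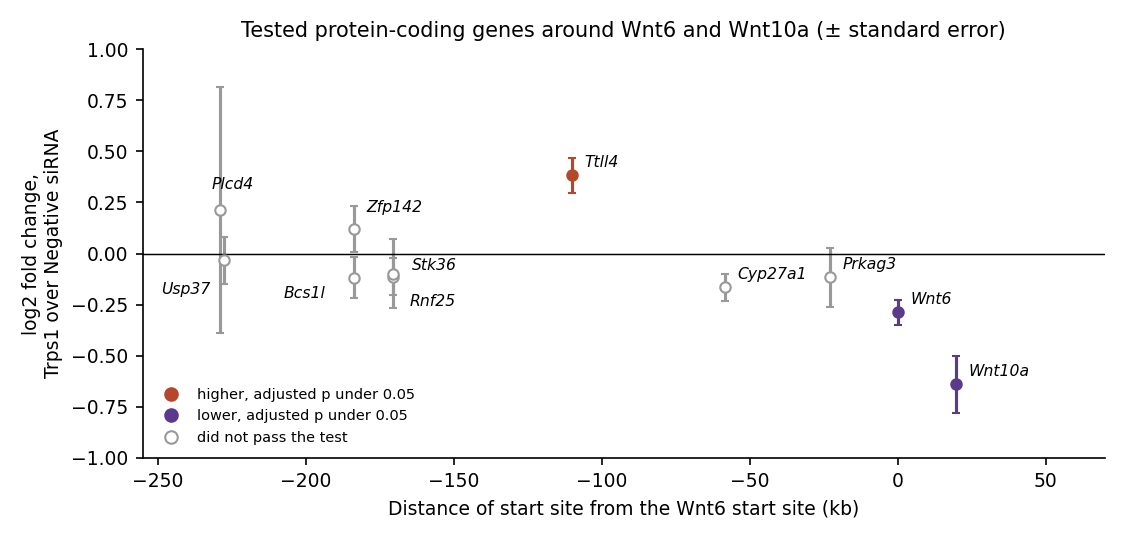
Log2 fold change (Trps1 siRNA over Negative siRNA, ± standard error) of the 11 tested protein-coding genes around Wnt6, against the distance of their start sites from that of Wnt6 in kb. Wnt6 (-0.29) and Wnt10a (-0.64) are the lower genes, Ttll4 (0.38) is the higher one, and the other 8 did not pass the test.

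The receptor genes that rose were those with the highest levels. Of 10 Frizzled genes 8 were tested, of which Fzd2 and Fzd1 rose and 6 did not pass the test. The share called was 25% of these 8 genes, against 11.2% of all tested genes. Fzd2 (ENSMUSG00000050288, chromosome 11, 102604396 to 102608058, plus strand) had 123 and 142 CPM with Trps1 siRNA, against 95.5 and 111 CPM with Negative siRNA. The groups did not overlap, although the samples within each also stood apart. The log2 fold change was 0.36 ± 0.07 (1.29-fold, edgeR adjusted p = 0.00261), and the call was lost without sample 2 of Trps1 siRNA (edgeR adjusted p = 0.0748). Fzd1 (ENSMUSG00000044674, chromosome 5, 4753839 to 4758035, on the minus strand) stood at 101 and 112 CPM with Trps1 siRNA, against 90.0 and 91.6 CPM with Negative siRNA. Its log2 fold change was 0.23 ± 0.06 (1.17-fold, edgeR adjusted p = 0.0144). The Fzd1 call was lost with DESeq2 (adjusted p = 0.0702), without sample 2 of Trps1 siRNA (log2 fold change 0.15, edgeR adjusted p = 0.283), and without sample 1 or sample 2 of Negative siRNA (edgeR adjusted p = 0.107 and 0.0647).

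Fzd7, which together with Fzd1 and Fzd2 forms a subfamily of closely related receptors, had 23.1 and 26.8 CPM with Trps1 siRNA, against 25.0 and 26.4 CPM with Negative siRNA. The groups overlapped, with a log2 fold change of -0.04 ± 0.10, and the difference between Fzd7 and its relatives was not tested. Fzd5 had 11.3 and 12.6 CPM with Trps1 siRNA, against 14.1 and 15.6 CPM with Negative siRNA. Both treated samples were lower, but its log2 fold change of -0.31 ± 0.13 did not pass the test (edgeR adjusted p = 0.125). Fzd3, Fzd4, Fzd6 and Fzd8 had log2 fold changes of 0.02 to 0.16 and did not pass it either. Per exon length Fzd2 led with 113 TPM with Trps1 siRNA and 87.3 TPM with Negative siRNA, ahead of Fzd1 with 79.3 TPM with Trps1 siRNA and 67.2 TPM with Negative siRNA. Fzd7 followed at a distance with 17.2 TPM with Trps1 siRNA and 17.6 TPM with Negative siRNA. Fzd1 and Fzd2 together made up 81.8% and 82.2% of the summed Frizzled TPM with Trps1 siRNA, against 77.8% and 78.7% with Negative siRNA.

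Both coreceptors were well expressed, and neither passed the test. Lrp5 had 167 and 170 CPM with Trps1 siRNA, against 152 and 152 CPM with Negative siRNA, which is a small shift between tight groups. That shift, 0.15 ± 0.06 on the log2 scale, had an edgeR adjusted p of 0.0949. Lrp6 had 70.2 and 77.1 CPM with Trps1 siRNA, against 62.1 and 72.0 CPM with Negative siRNA, with overlapping groups and a log2 fold change of 0.13 ± 0.08. By edgeR, DESeq2 and voom 0 of the 2 coreceptors was called, and 1, Lrp5, had an unadjusted edgeR p under 0.05.

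**Figure D4:**
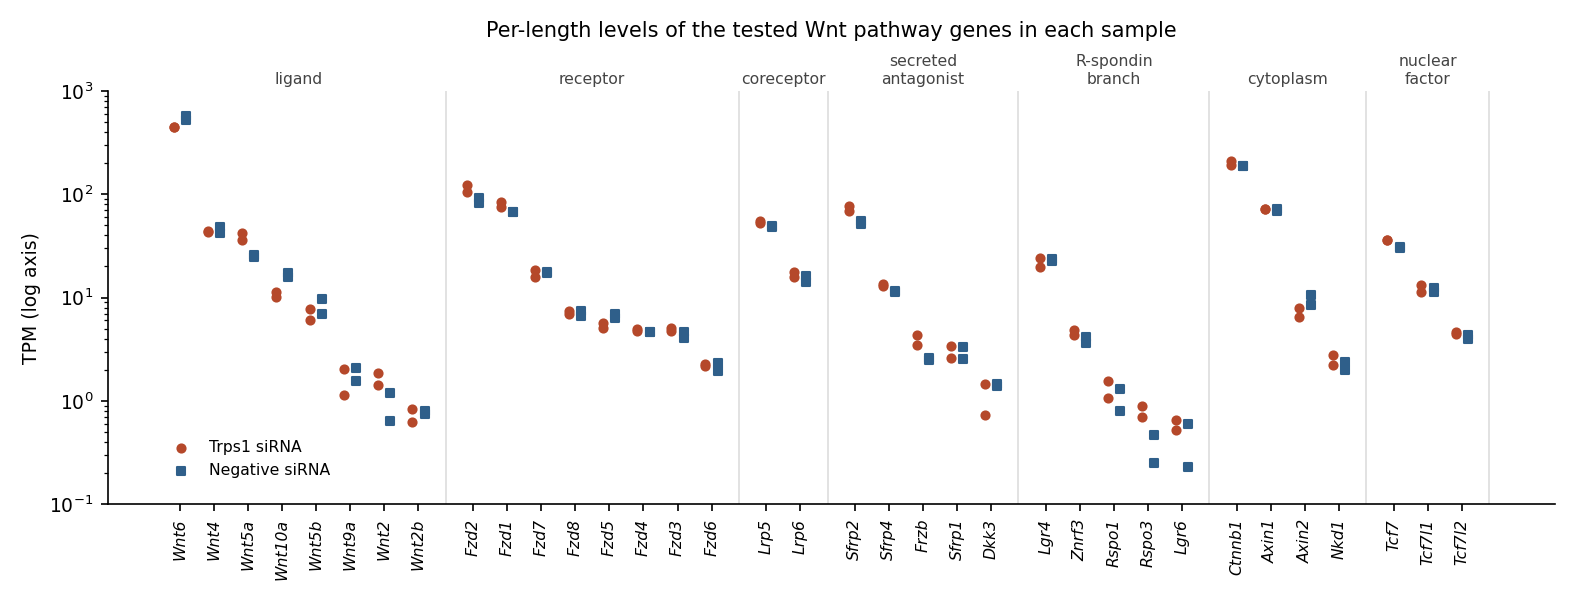
TPM (log axis) of the 35 tested Wnt pathway genes in each sample, grouped by role, with Trps1 siRNA (circles) left of Negative siRNA (squares). Wnt6 is the highest, at 449 TPM with Trps1 siRNA and 544 TPM with Negative siRNA on average, followed by Ctnnb1, Fzd2, Fzd1, Axin1 and Sfrp2.

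Most secreted antagonists bind Wnt proteins or their coreceptors outside the cell. Of 11 such genes 5 were tested, of which Sfrp2 rose and 4 did not pass the test. With so few genes, 1 call is a share of 20%, against 11.2% of all tested genes. Sfrp2 (ENSMUSG00000027996, chromosome 3, 83766321 to 83774316, plus strand), a secreted protein with a Frizzled-like domain, had 47.9 and 52.6 CPM with Trps1 siRNA, against 35.3 and 38.5 CPM with Negative siRNA. The groups were clearly separate. Its log2 fold change was 0.44 ± 0.08 (1.36-fold, edgeR adjusted p = 4.40e-04). Its antisense partner Gm26771 had 2 reads in 1 sample and 0 in the others. Sfrp4, a relative of Sfrp2, had 17.5 and 18.2 CPM with Trps1 siRNA, against 15.1 and 15.8 CPM with Negative siRNA. Frzb, a secreted protein of the same family, had 3.64 and 4.46 CPM with Trps1 siRNA, against 2.59 and 2.77 CPM with Negative siRNA. In both genes the treated samples were the higher ones, but log2 fold changes of 0.21 ± 0.11 for Sfrp4 and 0.60 ± 0.23 for Frzb did not pass the test (edgeR adjusted p = 0.280 and 0.101). Sfrp1 and Dkk3 had log2 fold changes of 0.03 ± 0.22 and -0.41 ± 0.39. Per exon length Sfrp2 stood first with 73.0 TPM with Trps1 siRNA and 53.2 TPM with Negative siRNA, more than all other antagonists together in every sample, at 73.1% to 78.2% of their sum. Dkk1, Dkk4 and Wif1 had 0 reads in all 4 samples.

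R-spondins raise Wnt signalling through the receptors Lgr4, Lgr5 and Lgr6 by removing the ubiquitin ligases Znrf3 and Rnf43, which otherwise clear Frizzled from the cell surface. Of 9 genes of this branch 5 were tested and edgeR, DESeq2 and voom each called 0, with 0 at an unadjusted p under 0.05. Lgr4 was the main receptor, at 22.0 TPM with Trps1 siRNA and 23.2 TPM with Negative siRNA, where Lgr6 was at 0.594 TPM with Trps1 siRNA and 0.410 TPM with Negative siRNA. The level of Lgr4 was 37.8 and 44.9 CPM with Trps1 siRNA, against 44.6 and 43.3 CPM with Negative siRNA. The groups overlapped, and its log2 fold change was -0.09 ± 0.08. Znrf3 had 11.0 and 12.1 CPM with Trps1 siRNA, against 10.4 and 9.38 CPM with Negative siRNA, and a log2 fold change of 0.23 ± 0.14. The ligands Rspo1 and Rspo3 and the receptor Lgr6 had at most 26 reads in any sample. Rspo3, with 16 and 15 reads with Trps1 siRNA against 5 and 12 with Negative siRNA, had the largest fold change of the 35 tested members, 1.08 ± 0.56 on the log2 scale, which did not pass the test (edgeR adjusted p = 0.252). Lgr5, a stem cell marker in other tissues, had 0 and 0 reads with Trps1 siRNA, against 1 and 0 with Negative siRNA.

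Of 5 members that act in the cytoplasm 4 were tested, of which Axin2 fell and Axin1, Ctnnb1 and Nkd1 did not pass the test. With so few genes, 1 call is a share of 25%, against 11.2% of all tested genes. Axin2 (ENSMUSG00000000142, chromosome 11, 108920349 to 108950783, plus strand), a scaffold of the destruction complex that beta-catenin itself induces, had 14.0 and 11.5 CPM with Trps1 siRNA, against 14.8 and 19.0 CPM with Negative siRNA. The groups did not overlap, but the nearest samples differed by less than the samples within either group. The log2 fold change was -0.42 ± 0.14, with an edgeR adjusted p of 0.0490 at the edge of the threshold. That call was lost under 6 of 12 other settings, with adjusted p-values of up to 0.507, reached without sample 2 of Negative siRNA, where the log2 fold change was -0.22. Without sample 2 of Trps1 siRNA the log2 fold change was -0.28 and the edgeR adjusted p 0.431, and with DESeq2 the adjusted p was 0.166. Its antisense partner Gm11670 had 1 read in 1 sample.

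Nkd1, another feedback inhibitor, had 3.25 and 4.003 CPM with Trps1 siRNA, against 2.89 and 3.55 CPM with Negative siRNA. The groups overlapped, with a log2 fold change of 0.17 ± 0.23. Ctnnb1, which encodes beta-catenin, had 324 and 348 CPM with Trps1 siRNA, against 312 and 321 CPM with Negative siRNA. Its log2 fold change of 0.09 ± 0.06 did not pass the test, and it shares exon sequence with Ulk4 on the opposite strand and with Mir7090. Axin1, the other Axin gene, was at 88.7 and 88.2 CPM with Trps1 siRNA, against 86.7 and 86.8 CPM with Negative siRNA. Its log2 fold change was 0.03 ± 0.06.

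Of the nuclear factors, Tcf7 had 30.8 and 30.0 CPM with Trps1 siRNA, against 25.0 and 26.7 CPM with Negative siRNA. Both treated samples were higher, but the log2 fold change of 0.23 ± 0.09 did not pass the test (edgeR adjusted p = 0.109). Tcf7l1 and Tcf7l2 had log2 fold changes of 0.06 ± 0.12 and 0.10 ± 0.13. By edgeR, DESeq2 and voom 0 of these 3 genes was called, with 1, Tcf7, at an unadjusted p under 0.05. Lef1 was at the limit of detection, with 0 and 4 reads with Trps1 siRNA, against 5 and 6 with Negative siRNA. Per exon length Tcf7 led with 36.2 TPM with Trps1 siRNA and 30.6 TPM with Negative siRNA, ahead of Tcf7l1 with 12.4 TPM with Trps1 siRNA and 11.8 TPM with Negative siRNA.

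**Figure D5:**
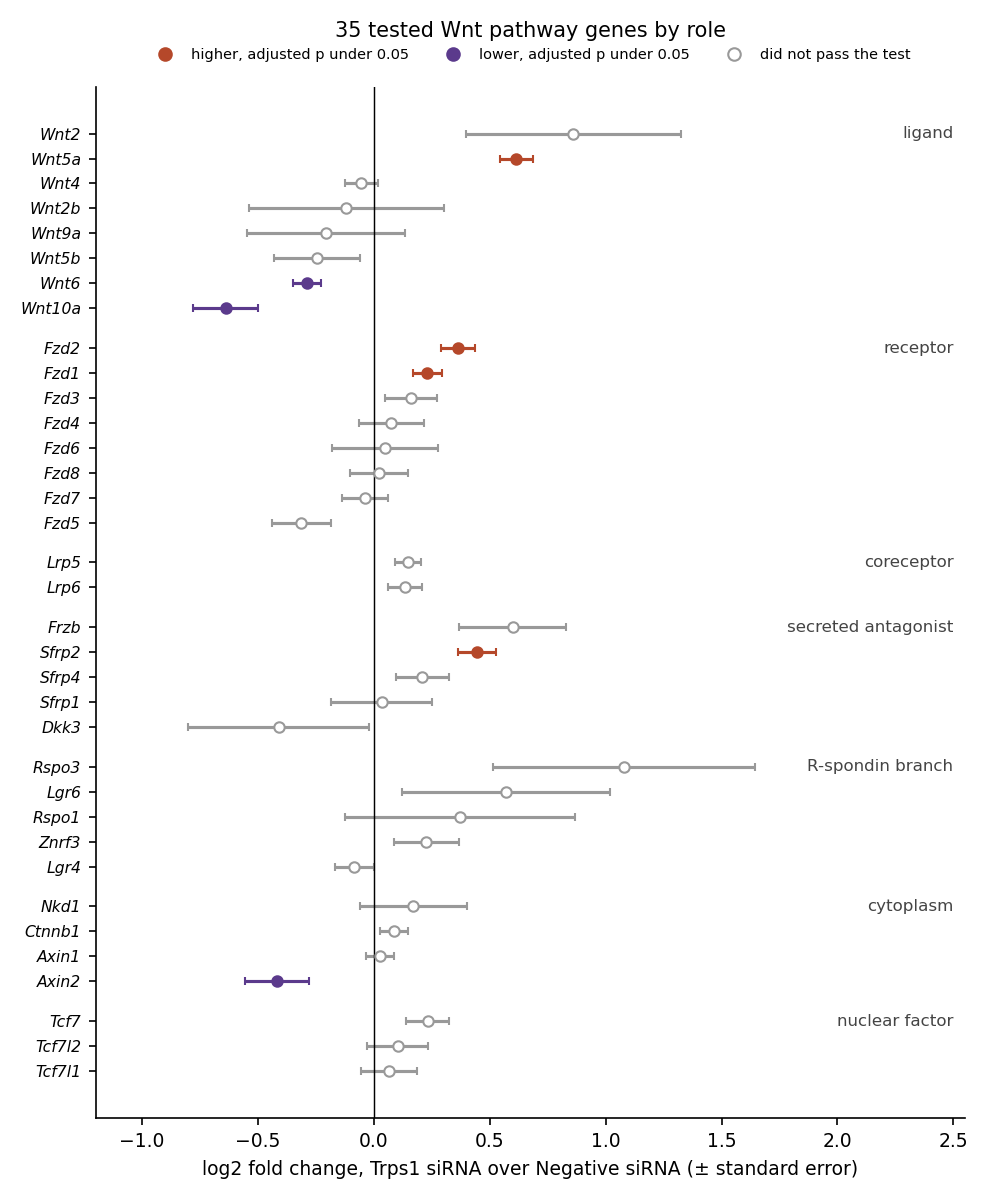
Log2 fold change (Trps1 siRNA over Negative siRNA, ± standard error) of the 35 tested Wnt pathway genes, grouped by role. Filled points mark the 4 genes that rose and the 3 that fell, and open points the 28 genes that did not pass the test, with the widest bars on genes of few reads such as Rspo3.

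The other 25 genes did not pass the filter on low counts. In all 4 samples 8 of them had 0 reads, namely Wnt1, Wnt3, Wnt3a, Wnt7a, Dkk1, Dkk4, Wif1 and Rspo2. A count of 0 allows a level of up to 0.168 and 0.139 CPM with Trps1 siRNA and 0.149 and 0.116 CPM with Negative siRNA. These limits are 3 reads over the library total without TMM adjustment, and cover counting error only. The remaining 17 were Wnt7b, Wnt8a, Wnt8b, Wnt9b, Wnt10b, Wnt11, Wnt16, Fzd9, Fzd10, Sfrp5, Dkk2, Notum, Rspo4, Rnf43, Lgr5, Nkd2 and Lef1, with at most 12 reads in any sample. Among them Wnt11 had 8 and 8 reads with Trps1 siRNA, against 4 and 3 with Negative siRNA, and Rnf43 had 4 and 5 reads with Trps1 siRNA, against 2 and 0 with Negative siRNA. These counts are too low for a comparison.

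Start-site windows were read for the changed genes because Trps1 binds GATA sequences and Axin2 is a Tcf target. RefSeq windows (GRCm38.p6) from 250 bases before to 50 bases after the annotated start were found for 40 of the 60 members, 50 windows in all, and among the changed genes for Fzd1, Sfrp2, Wnt6 and Axin2. They are shown for these 4 genes, 5′ to 3′ on the gene's strand, with GATA matches in capitals.
Fzd1 (rose; chr5:4758167-4758466, minus strand): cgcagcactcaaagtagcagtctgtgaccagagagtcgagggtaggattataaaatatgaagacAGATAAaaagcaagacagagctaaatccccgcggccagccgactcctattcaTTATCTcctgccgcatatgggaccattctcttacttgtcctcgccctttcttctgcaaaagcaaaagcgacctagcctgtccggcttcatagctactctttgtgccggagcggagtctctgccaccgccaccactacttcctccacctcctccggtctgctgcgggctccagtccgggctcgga
Sfrp2 (rose; chr3:83766071-83766370, plus strand): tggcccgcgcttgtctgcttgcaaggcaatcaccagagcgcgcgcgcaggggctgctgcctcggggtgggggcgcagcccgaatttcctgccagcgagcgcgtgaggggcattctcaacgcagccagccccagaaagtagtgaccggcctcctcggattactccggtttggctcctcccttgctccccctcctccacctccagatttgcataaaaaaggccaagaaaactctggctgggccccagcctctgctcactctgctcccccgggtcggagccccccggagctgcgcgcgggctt
Wnt6 (fell; chr1:74771642-74771941, plus strand): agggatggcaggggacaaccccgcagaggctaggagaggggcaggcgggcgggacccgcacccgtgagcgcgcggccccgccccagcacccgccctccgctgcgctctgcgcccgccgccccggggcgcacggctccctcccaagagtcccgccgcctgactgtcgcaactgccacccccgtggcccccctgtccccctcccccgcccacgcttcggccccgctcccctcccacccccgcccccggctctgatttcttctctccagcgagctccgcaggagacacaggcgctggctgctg
Axin2 (fell; chr11:108920099-108920398, plus strand): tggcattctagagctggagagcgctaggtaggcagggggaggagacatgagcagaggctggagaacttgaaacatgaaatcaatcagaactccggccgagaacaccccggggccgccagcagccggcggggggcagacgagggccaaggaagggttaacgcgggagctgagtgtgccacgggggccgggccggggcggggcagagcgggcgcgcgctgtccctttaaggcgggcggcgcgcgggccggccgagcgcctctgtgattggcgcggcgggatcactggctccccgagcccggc
The GATA letters searched on both strands were AGATAA or AGATAG, and likewise TGATAA or TGATAG. Fzd1 held AGATAA 2 times, once on each strand, beginning 186 and 134 bases before the RefSeq start, which lies upstream of the start of the GENCODE gene model. The other 3 windows held none of these letters. Over all members 9 of 50 windows held a match, or 18%, against 29.8% of all 32851 windows. The Tcf and Lef letters CTTTGAA and CTTTGAT were in none of the 4 windows, in 3 of 50 member windows (6%), those of Dkk1, Wnt5b and Wnt11, and in 8.65% of all windows. GC content was 54% in the Fzd1 window, 66% in that of Sfrp2, 70% in that of Axin2 and 76.7% in that of Wnt6. A match in letters is not a binding site.

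Pathway genes outside the naming rule were examined in 6 lists. Of 10 tested genes of Wnt production and secretion 3 fell and 7 did not pass the test, a share of 30% called, against 6% of all tested genes lower and 11.2% called in either direction. The list median was -0.16 on the log2 scale, against 0.00 over all tested genes. Of the 10 log2 fold changes 7 were negative and 3 positive. The largest positive value, for Trabd2b, was 0.60 ± 0.20 and did not pass the test (edgeR adjusted p = 0.0573). Porcn, the enzyme that attaches the lipid without which Wnt proteins are not secreted, had 26.2 and 24.8 CPM with Trps1 siRNA, against 34.9 and 31.3 CPM with Negative siRNA. Its samples did not overlap (log2 fold change -0.37 ± 0.09, edgeR adjusted p = 0.00787), and the call was lost without sample 2 of Trps1 siRNA or sample 1 of Negative siRNA (edgeR adjusted p = 0.0816 and 0.107). Wls, the carrier that brings Wnt proteins to the cell surface, averaged 299 CPM with Trps1 siRNA and 334 CPM with Negative siRNA and did not pass the test (log2 fold change -0.16 ± 0.06, edgeR adjusted p = 0.0858). The other falling members act at the cell surface rather than in secretion. Gpc4, a heparan sulfate proteoglycan, fell by 0.26 ± 0.06 and Reck, a membrane-anchored protein needed for Wnt7 signals, fell by 0.32 ± 0.09 on the log2 scale (edgeR adjusted p = 0.00226 and 0.0188). The Reck call was lost with DESeq2 and in 3 of 4 fits that left out a sample, with adjusted p-values of 0.0561 to 0.114.

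Of 7 tested receptor-level modulators 1 fell and 6 did not pass the test, a share of 14.3% called and near the 11.2% of all tested genes. Igfbp4, which binds insulin-like growth factors and is also known as an inhibitor of Wnt receptors, had 204 and 171 CPM with Trps1 siRNA, against 399 and 425 CPM with Negative siRNA. It had a larger fold change than any tested gene of the other 5 lists that passed the test, at -1.14 ± 0.07 on the log2 scale (edgeR adjusted p = 1.67e-10). Of 22 cytoplasmic genes 2 fell and 20 did not pass the test. The 9.09% called was near the 11.2% of all tested genes. Tnks, which marks Axin for degradation, had 38.3 and 41.5 CPM with Trps1 siRNA, against 56.3 and 58.7 CPM with Negative siRNA (log2 fold change -0.53 ± 0.08, edgeR adjusted p = 2.93e-05). Csnk2a1, a catalytic subunit of casein kinase 2, fell by 0.28 ± 0.06 on the log2 scale (edgeR adjusted p = 0.00286). Apc, Gsk3b, Dvl1, Dvl2 and Dvl3 had log2 fold changes of -0.02 to 0.14, and none of these 5 passed the test. Tnks shares exon sequence with Gm9939 on the opposite strand.

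Of 22 nuclear cofactors 3 rose and 19 did not pass the test. The 13.6% called was near the 11.2% of all tested genes. Tle3, a Groucho-type corepressor that binds Tcf proteins, had 159 and 180 CPM with Trps1 siRNA, against 135 and 129 CPM with Negative siRNA (log2 fold change 0.36 ± 0.06, edgeR adjusted p = 2.18e-04). Tbl1x and Tbl1xr1, which exchange corepressors for coactivators, rose by 0.18 ± 0.06 and 0.25 ± 0.08 on the log2 scale (edgeR adjusted p = 0.0414 and 0.0450), and DESeq2 and voom called neither. With edgeR the Tbl1x call was also lost without sample 2 of Trps1 siRNA or either sample of Negative siRNA, and the Tbl1xr1 call without either sample of Trps1 siRNA or sample 1 of Negative siRNA (adjusted p = 0.0549 to 0.546). The median log2 fold change was -0.10 for the receptor-level modulators, 0.03 for the cytoplasmic genes and 0.09 for the nuclear cofactors. Of 12 tested genes of noncanonical receptors and planar polarity, among them the Wnt5a receptors Ror1 and Ror2, edgeR, DESeq2 and voom called 0, with 0 at an unadjusted p under 0.05. Ror1 averaged 17.4 CPM with Trps1 siRNA and 19.9 CPM with Negative siRNA, and Ror2 averaged 16.0 CPM with Trps1 siRNA and 15.1 CPM with Negative siRNA. The median log2 fold change of these 12 genes was 0.05.

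Of 20 tested genes commonly used as readouts of beta-catenin, 2 were higher and 1 was lower past the test, with a list median of 0.00 on the log2 scale. The 15% called was near the 11.2% of all tested genes. Ccnd1, the cyclin that the study's title names as a Trps1 target, fell by 0.48 ± 0.07 on the log2 scale, whereas Vegfa, a growth factor of blood vessels, rose by 0.46 ± 0.06 and Bambi, a decoy receptor for TGF-beta, by 0.32 ± 0.09 (edgeR adjusted p = 5.33e-05, 8.03e-06 and 0.0203). The Bambi call was lost with DESeq2 and without sample 2 of Trps1 siRNA or sample 1 of Negative siRNA (adjusted p = 0.0899, 0.420 and 0.0560). Ccnd1 shares exon sequence with LTO1 on the opposite strand. Myc, Cd44, Id2 and Ccn5 had log2 fold changes of -0.10 to 0.03 and did not pass the test. Over the 20 tested genes the values ran from -0.73 to 0.75, and the genes at these extremes did not pass the test either.

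The authors' deposited table lists 780 genes, where the count table holds 55812 features, and 4 of the 60 members are among them. In the authors' deposited table the log2 fold changes are 0.61 for Wnt5a, 0.44 for Sfrp2, -0.29 for Wnt6 and -0.63 for Wnt10a, with adjusted p-values of 2.54e-04, 9.33e-04, 9.63e-04 and 0.0116. Fzd1, Fzd2 and Axin2, called here, are not among the 780 genes of the authors' deposited table, so no values of theirs can be compared.

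Marker sums of other cell types were compared in the same groups. The counts of called markers stand beside 5.24% of all tested genes called higher and 6% called lower. Smooth muscle markers summed to 59.0 and 62.8 CPM with Trps1 siRNA, against 94.1 and 95.1 CPM with Negative siRNA, and 2 of their 4 tested genes fell. Stromal markers summed to 824 and 829 CPM with Trps1 siRNA, against 919 and 924 CPM with Negative siRNA, with 1 of 6 lower. Endothelial markers summed to 38.1 and 38.2 CPM with Trps1 siRNA, against 40.4 and 34.0 CPM with Negative siRNA, with overlapping groups and 0 of 6 genes called by edgeR, DESeq2 and voom (0 at an unadjusted edgeR p under 0.05). Sertoli cell markers summed to 38.7 and 36.4 CPM with Trps1 siRNA, against 32.4 and 33.8 CPM with Negative siRNA, and 1 of 3 tested genes, Gata1, was higher past the test. Germ cell markers summed to 37.0 and 48.5 CPM with Trps1 siRNA, against 35.4 and 32.7 CPM with Negative siRNA, and 1 of 2 tested genes, Zbtb16, was higher past the test (edgeR adjusted p = 0.0154 for Gata1 and 0.0423 for Zbtb16). DESeq2 called neither of these genes. Each of the macrophage, stromal, endothelial, smooth muscle and Sertoli markers had at least 1 read, and of the germ cell markers Tnp1 was at 0. The part of Leydig, macrophage, stromal, smooth muscle, Sertoli and germ cell RNA in the changes of the Wnt genes was not tested.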

How the data were processed

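Total RNA of mouse primary Leydig cells was sequenced in 4 samples, grouped by their titles. The deposited table holds raw read counts per gene. HISAT2, featureCounts and GRCm38 (mm10) are named, without versions, in the submitters' processing notes, and no source used here gives strandedness or the handling of multi-mapping reads. In the authors' second deposited table, per the file headers, there are mean signal per group, log2 fold changes and p-values, whose test is not given. Symbols and exon lengths came from GENCODE M21, matched by identifier for 55141 of 55812 features. TPM used the union of exons of each gene.

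Counts were tested with edgeR 4.0.16 (R 4.3.3) using TMM, filterByExpr (minimum count 10), then robust glmQLFit and glmQLFTest on group alone, with 2 residual degrees of freedom and Benjamini-Hochberg adjustment over 14701 genes. The standard error was the absolute log2 fold change divided by the root of F. Replicates of a group differed by more than sampling noise (mean chi-square per gene 4.34 for Trps1 siRNA and 7.08 for Negative siRNA). The script was tested on simulated data. Alternatives were RLE, library totals, no filter, a filter at a mean of 5 CPM, DESeq2 1.42.0, voom of limma 3.58.1, no robust estimation, a replicate block and each sample left out.

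The members and lists were chosen with earlier results of these data known. Named genes were Trps1, members past the test, the 3 most abundant tested members of each role, Ctnnb1, Axin2, Lef1, Lgr5 and Nkd1, and up to 6 called genes of each further list. Other names, such as Wnt5b, Fzd5, Rspo3, Wnt11, Rnf43, Wls, Trabd2b, Ror1, Ror2, Myc and the genes around Wnt6, were chosen after their values were seen.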

Additional observations from a re-analysis of the deposited data

How the results depend on the processing

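Wnt5a, Sfrp2 and Wnt6 kept their direction and their call under all 12 alternatives, with log2 fold changes of 0.50 to 0.71, 0.37 to 0.51 and -0.34 to -0.24. The Wnt6 call was only just kept without sample 1 of Negative siRNA, where its log2 fold change was -0.24. Fzd2 and Wnt10a kept theirs under 11 of 12, Fzd1 under 8 and Axin2 under 6, with log2 fold changes of 0.25 to 0.47 for Fzd2, -0.73 to -0.54 for Wnt10a, 0.15 to 0.30 for Fzd1 and -0.59 to -0.22 for Axin2, and none of the 7 genes reversed. Among all genes 1652 were called, against 991 with DESeq2 (6.74% of tested genes) and 871 to 1675 with a sample left out. With a sample left out the member median was 0.053 to 0.138 on the log2 scale. The fewest members, and the fewest of all genes, were called without sample 2 of Trps1 siRNA. The replicate block, by the numbers in the labels, called 2285 genes, or 15.5% of tested genes, and the same 4 higher and 3 lower members. Samples that shared a number had a correlation of deviations of 0.017 across genes, and whether a number marks a shared day or batch is not stated. The log2 fold change of Trps1 was -0.42 without sample 1 of Trps1 siRNA and -0.78 without sample 2. In the same order, Wnt5a was at 0.71 and 0.50, Fzd2 at 0.46 and 0.25, and Axin2 at -0.57 and -0.28. Each of the 7 changed genes had the larger fold change without sample 1, Wnt6 only slightly (-0.30 against -0.28). Whether these changes follow the remaining Trps1 level was not tested. Depth limits the 7 tested members with at most 44 reads in any sample, whose standard errors were 0.34 or more on the log2 scale.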
